A study of Mus musculus with 6 samples.

Results

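The genes described here are 7 targets of the transcription factor p53 that act in programmed cell death: Pmaip1, Apaf1, Perp, Aen, Eda2r, Trp53inp1 and Phlda3. They were read from all probe sets annotated to exactly 1 of these symbols, which gave 9 probe sets, 3 of them for Aen and 1 for each of the other 6 genes. They are 7 of 10290 genes that had a probe set with 1 symbol among the 19551 probe sets of the table. They were chosen by their signal difference between the genotypes in these same arrays, so their differences below are descriptions. Calls and intervals from the fit over all probe sets are given for them, and no support is drawn from these.

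Messenger RNA was measured with Affymetrix mouse expression arrays in anterior presomitic mesoderm (PSM), the tissue that buds off somites, at embryonic day 8.75 on a background labelled C57BL6/6J. Mutants had the genotype R26R AC/AC;T-Cre and controls R26R AC/AC, so both carried the AC allele on both copies of ROSA26 and differed in T-Cre. Each genotype had 3 arrays, and each array held RNA of 1 pool of 3 PSMs, which the labels call a biological replicate. T-Cre is a Cre recombinase under the promoter of T (Brachyury), active in the primitive streak and the mesoderm that leaves it, and the AC allele is read here as a Cre-activated form of A-CREB, which blocks CREB family factors from binding DNA, an identity that comes from outside the labels. No pool carried T-Cre without the AC allele, so the actions of Cre and of AC cannot be told apart, and the transgene itself was not analysed here.

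p53 accumulates after DNA damage and other stress and switches on genes that stop the cell cycle, repair damage or kill the cell. In the mitochondrial route, BH3-only proteins such as Noxa, the product of Pmaip1, neutralise survival proteins of the Bcl2 family, cytochrome c leaves the mitochondria, and Apaf1 assembles with it into the apoptosome that activates caspase 9. Other targets act at the membrane (Perp and the receptor Eda2r), on DNA (the nuclease Aen), on p53 itself (Trp53inp1) or on survival signalling (Phlda3). Early mouse embryos are known to be sensitive to p53, and excess p53 activity in embryonic mesoderm is known to cause developmental defects.

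RefSeq promoter windows of GRCm38.p6, which run from 250 bases before to 50 bases after a transcription start, were held for 4 of the 7 genes, and 3 stretches are shown because these genes differed together between the genotypes. The first 2 are the 250 bases upstream of the start of Eda2r (chrX:97377210-97377459, minus strand) and of Phlda3 (chr1:135765835-135766084, plus strand), 2 of the 3 genes with the largest differences. The last is the stretch of 30 bases in Aen (chr7:78895927-78895956, plus strand) that holds the p53 half-site. Capitals mark matches to the p53 half-site consensus, a 10-base motif equal to its own reverse complement, exact in Aen and with 1 mismatch in Eda2r.
Eda2r upstream: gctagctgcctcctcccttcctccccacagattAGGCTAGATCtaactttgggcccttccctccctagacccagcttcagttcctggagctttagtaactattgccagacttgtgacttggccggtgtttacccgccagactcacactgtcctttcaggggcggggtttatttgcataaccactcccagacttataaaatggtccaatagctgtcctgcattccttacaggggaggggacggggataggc
Phlda3 upstream: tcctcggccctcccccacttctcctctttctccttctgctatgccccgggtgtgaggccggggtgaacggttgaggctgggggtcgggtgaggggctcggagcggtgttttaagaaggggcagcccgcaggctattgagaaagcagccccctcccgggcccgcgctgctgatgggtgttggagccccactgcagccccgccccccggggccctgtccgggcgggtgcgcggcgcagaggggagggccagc
Aen half-site: agccgaagccGGGCTTGTCCgggcaaggag
An exact half-site stood in 8.36% of all 32851 promoter windows, and 1 with up to 1 mismatch in 70.0% of them. Both windows of Aen held the same exact half-site, which begins 10 bases after 1 annotated start and 121 bases before the other. The windows of Phlda3 and Apaf1 held no match with up to 1 mismatch. A match describes letters in a window and says nothing about binding.

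All 9 member probe sets had higher mean values in mutant PSM, as 55.1% of all probe sets did, with log2 differences (mutant minus control) from 0.13 to 2.55. In 8 of the 9 the 3 mutant values lay above the 3 control values, where 10.9% of all probe sets did so. The exception was 1 of the 3 probe sets of Aen. Of the 9, 3 were called higher at an adjusted p under 0.05 in the fit over all probe sets, those of Eda2r, Trp53inp1 and Phlda3, against 0.24% of all probe sets, and 0 were called lower, against 0.317%. Calls in either direction made up 0.558% of all probe sets. Since this contrast chose the genes, nothing is read from these counts. Without control 1, 5 member probe sets were called, and without any 1 of the other 5 arrays 3 or 4. The median difference was 0.99 over the 9 probe sets and 1.24 over the 7 genes, each taken as its brightest probe set, beside 0.03 over all probe sets and 0.02 over all genes.

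**Figure D1:**
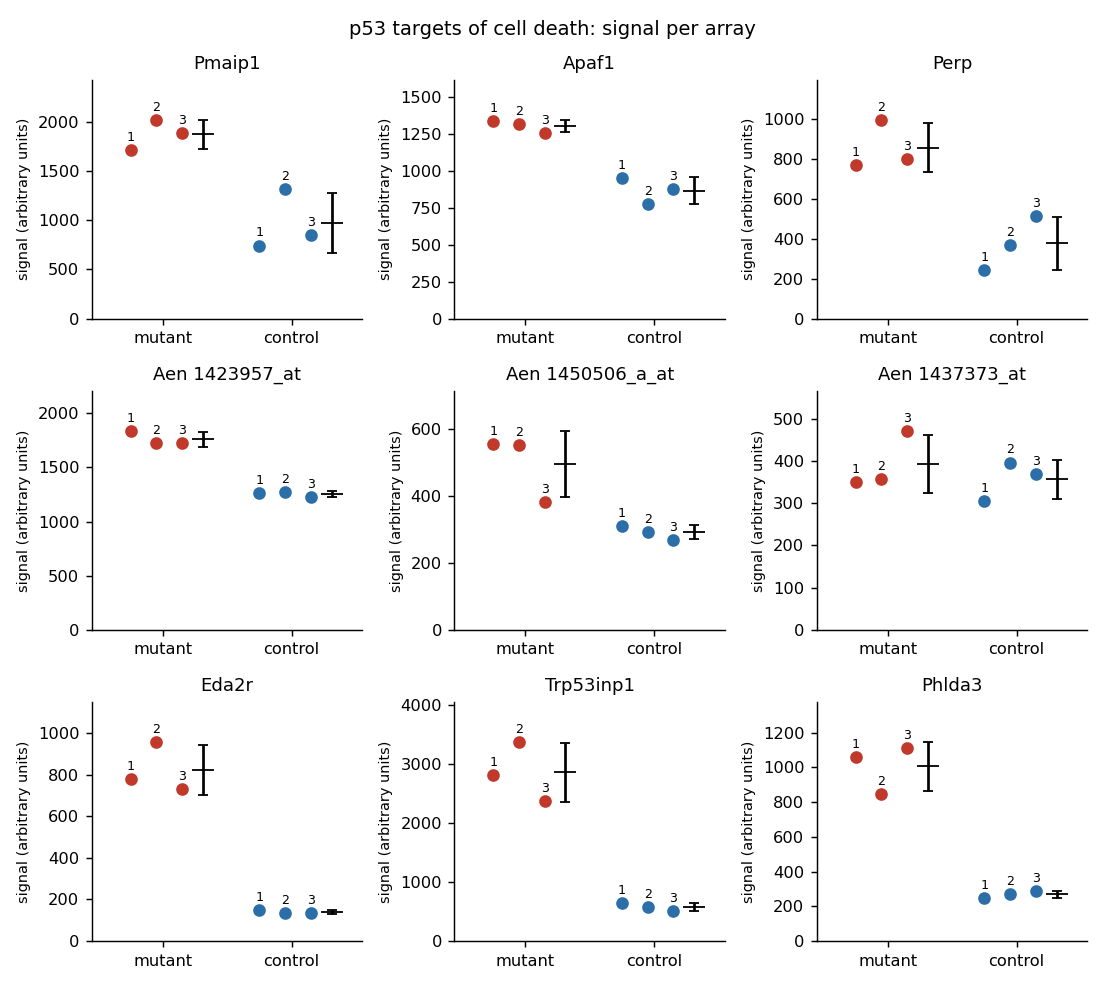
Signal of each member probe set (arbitrary units, linear axis from 0) in the 3 mutant and 3 control arrays, numbered by replicate, with the mean and SD as a black bar. The genotypes overlap only in the Aen probe set 1437373_at, and Eda2r, Trp53inp1 and Phlda3 have the widest gaps.

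Pmaip1 encodes Noxa, the BH3-only protein that binds Mcl1. Its signal was 1718, 2016 and 1888 in mutant pools 1, 2 and 3, against 743, 1319.5 and 851 in control pools 1, 2 and 3. Every mutant value was above every control value, but control 2 stood well above the other controls and the lowest mutant value was 1.30 times that of control 2. The difference was 1.98-fold (95% interval 1.47 to 2.68, log2 0.99, SE 0.19, n = 3 pools per genotype).

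Apaf1, the scaffold of the apoptosome, read 1337, 1314 and 1254 in mutant pools and 949, 773 and 874 in control pools. The mutant pools were within 1.07 times of each other, and the groups did not overlap. Its difference was 1.51-fold (95% interval 1.24 to 1.83, log2 0.59, SE 0.13). Of the genes with 1 probe set it had the smallest difference.

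Aen encodes an exonuclease that p53 induces and that enhances DNA breakdown in dying cells. Its brightest probe set, 1423957_at, read 1840.2, 1722 and 1722 in mutant pools, against 1264, 1276 and 1223 in control pools, a 1.40-fold difference (95% interval 1.18 to 1.66, log2 0.49, SE 0.11). Both groups were tight here, with the controls within 1.04 times of each other. The second, 1450506_a_at, read 552, 551 and 379.5 in mutant pools and 310.5, 292 and 269 in control pools (log2 0.75, SE 0.18). The groups did not overlap, but mutant 3 lay closer to the controls than the other mutants did.

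The third Aen probe set, 1437373_at, read 349.6, 358 and 472 in mutant pools and 305, 396 and 369 in control pools. These groups overlapped, with 2 mutant pools below the highest control, and the difference was 0.13 (SE 0.18, 95% interval −0.26 to 0.53). The 3 probe sets of Aen therefore gave unequal differences, and which transcripts each one reads was not analysed here.

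Perp encodes a tetraspan membrane protein that is needed for p53-dependent death in some cells and for desmosomes in epithelia. Its signal was 769, 995 and 798 in mutant pools, against 245, 369 and 512 in control pools. The controls spread 2.09 times from lowest to highest, the widest spread of any member within a genotype, and the lowest mutant value was 1.5 times the highest control. Its difference was 2.36-fold (95% interval 1.62 to 3.42, log2 1.24, SE 0.24).

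Eda2r is a receptor of the tumour necrosis factor family that binds the A2 form of ectodysplasin, and p53 is known to induce it. It read 779, 958 and 733 in mutant pools and 148, 133 and 135 in control pools. The lowest mutant value was 4.95 times the highest control, the widest gap among the members. The difference was 5.87-fold (95% interval 4.56 to 7.56, log2 2.55, SE 0.16), the fifth highest of all 19551 probe sets. With its low control signals, Eda2r was the 1 member probe set below the 40th percentile of mean log2 signal, and the other 8 were above it. The 5th percentile of signal on each array was 59.6 to 72.5, so the Eda2r controls stood above the dimmest probe sets.

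Trp53inp1 encodes a stress-induced nuclear protein that acts with p53 and its kinases to favour death, and that also takes part in autophagy. Its signal was 2812, 3372 and 2377.5 in mutant pools, against 643, 571 and 509 in control pools. The groups lay far apart, with a lowest mutant value 3.70 times the highest control, although the mutant pools themselves spread 1.42 times. The difference was 4.93-fold (95% interval 3.89 to 6.26, log2 2.30, SE 0.16), the 12th highest of all probe sets.

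Phlda3 encodes a protein that is little more than a lipid-binding PH domain and that blocks the recruitment of the survival kinase Akt to the membrane. It read 1058, 844 and 1114 in mutant pools and 249.9, 268 and 286 in control pools. Controls were close together, and the lowest mutant value was 2.95 times the highest of them. Its difference was 3.72-fold (95% interval 2.93 to 4.73, log2 1.90, SE 0.16), the 21st highest of all probe sets.

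**Figure D2:**
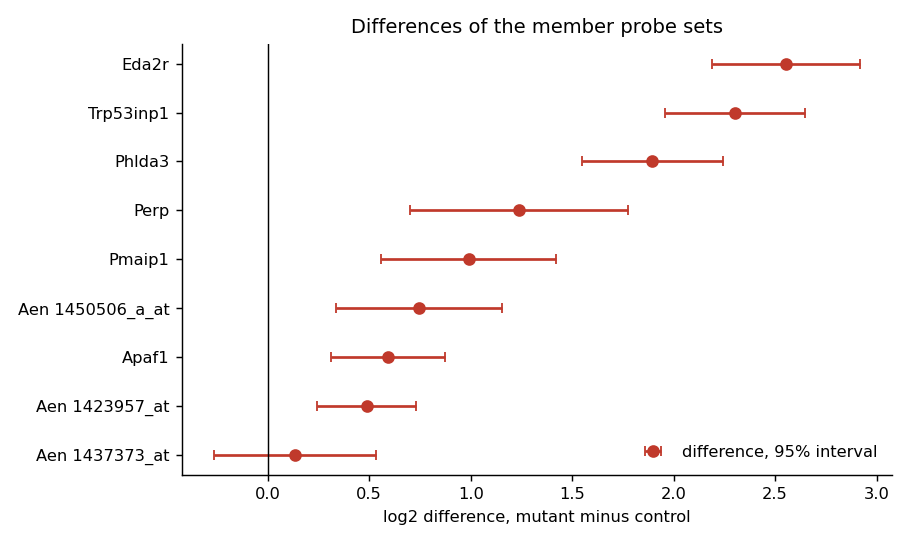
Log2 difference (mutant minus control) of each member probe set with its 95% interval from the limma fit over all probe sets, n = 3 pools per genotype. Eda2r, Trp53inp1 and Phlda3 lie between 1.90 and 2.55, Perp and Pmaip1 near 1, and Apaf1 and Aen lower.

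In order of their differences the genes ran Eda2r, Trp53inp1, Phlda3, Perp, Pmaip1, Apaf1 and Aen. Differences between members were not tested. Within the mutant genotype, mutant 2 was the highest array for 4 of the 7 genes, mutant 1 for 2 and mutant 3 for 1, each gene taken as its brightest probe set. Control 1 was the lowest array for 3 genes, and control 2 and control 3 for 2 each. The mean of the 7 genes, each centred on its mean over the 6 arrays, was 0.70, 0.80 and 0.66 in mutant 1, 2 and 3 and −0.80, −0.67 and −0.68 in control 1, 2 and 3.

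The arrays had nearly equal median signals, between 491 and 535, and correlated pairwise at r = 0.975 to 0.991 over probe sets, which do not count as replicates. They fell into 2 sets by the ratio of 3' to 5' signal of dap, a spike-in RNA added before labelling, at 23.8, 19.6 and 22.9 in mutant 1, mutant 2 and control 1, against 10.2, 12.2 and 11.1 in mutant 3, control 2 and control 3. Within the high-ratio arrays the difference was 2.54 for Eda2r, 2.26 for Trp53inp1 and 1.91 for Phlda3, and within the others it was 2.44, 2.14 and 2.00, so these 3 were about as large in both sets. Perp had 1.83 and 0.87, and Pmaip1 1.32 and 0.83. Apaf1 had 0.48 and 0.61, and the brightest probe set of Aen 0.49 and 0.46, while Aen 1450506_a_at had 0.83 and 0.44. Each set holds a single pool of 1 of the genotypes, and the part of the spike-in ratio in the unequal values of Perp, Pmaip1 and Aen 1450506_a_at was not tested.

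**Figure D3:**
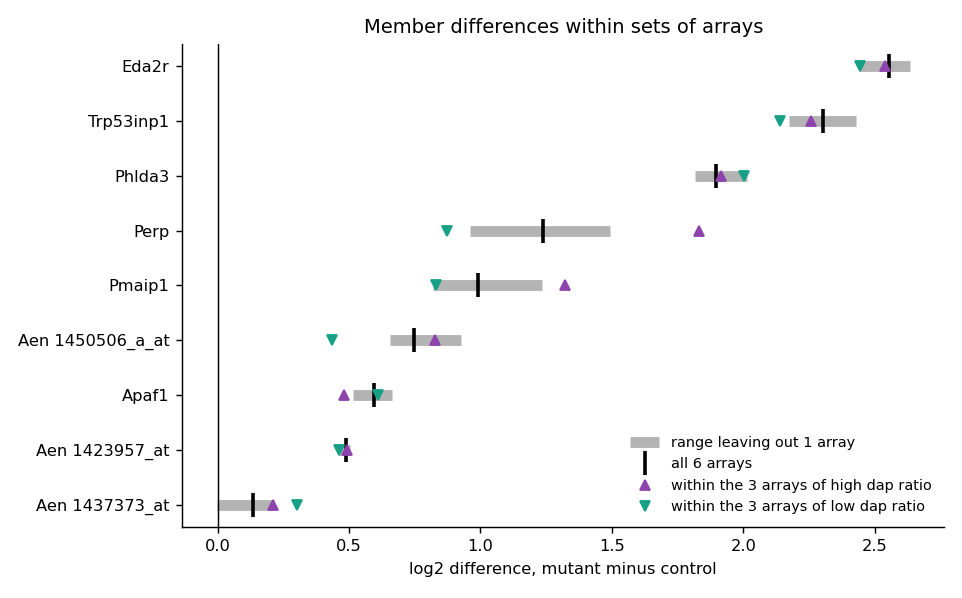
Log2 difference (mutant minus control) of each member probe set over all 6 arrays (black tick), its range when 1 array was left out (grey bar), and the difference within the 3 arrays of high and the 3 of low dap spike-in ratio (triangles). Perp, Pmaip1 and Aen 1450506_a_at have unequal values in the sets, with 1.83, 1.32 and 0.83 in the high-ratio arrays and 0.87, 0.83 and 0.44 in the others.

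With 1 array left out, the difference ranged from 2.44 to 2.63 for Eda2r, from 2.18 to 2.43 for Trp53inp1 and from 1.82 to 2.02 for Phlda3. It ranged from 0.96 to 1.49 for Perp, from 0.82 to 1.23 for Pmaip1 and from 0.51 to 0.66 for Apaf1. The brightest probe set of Aen kept to 0.46 to 0.50, while 1437373_at had a value of −0.0041 without mutant 3 and at most 0.21.

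The tissue was checked against marker genes, each read by its brightest probe set, beside all 10290 genes, of which 0.34% were called higher, 0.466% lower and 52.9% were positive. All 13 measured PSM markers were negative, and limma called 1 of them lower, Ripply2 (log2 −1.56). Their summed signal was 9066 to 12198 in mutant pools and 14842 to 16669 in control pools, and their median difference of −0.64 was −0.67 in the high-ratio set and −0.16 in the low-ratio set. Pcdh8 had −1.29 by its brightest probe set, which was not called, and −1.38 by its other one, which was called. Of 14 surface ectoderm markers 13 were positive and 2 were called higher, Epcam (log2 0.60) and Krt19 (log2 1.12). Their summed signal was 32821 to 35182 in mutant pools and 23903 to 27275 in control pools, and their median of 0.52 was 0.68 in the high-ratio set and 0.49 in the low-ratio set. In bulk tissue, fewer cells of a type and less RNA per cell cannot be told apart.

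Epithelia are known to use Perp in desmosomes and Trp63, the p53 relative, to drive it. Trp63 read 466, 536 and 359 in mutant pools and 159, 242 and 267 in control pools (log2 1.04, SE 0.23, limma adjusted p = 0.0873). Trp63 and Perp were both highest in mutant 2 and lowest in control 1. Dsp, which encodes the desmosome protein desmoplakin, was the 1 ectoderm marker with a negative difference (log2 −0.13, SE 0.11), and its groups overlapped. The part of ectoderm cells in the values of Perp and of Eda2r, which ectodermal tissue also uses, was not tested.

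All 6 blood markers were positive with a median of 0.60, and limma called 0 of them. By limma 4 of the 6 had an unadjusted p under 0.05, beside 14.6% of all genes. So did 7 of the 13 PSM markers and 11 of the 14 ectoderm markers. The blood median was 0.79 in the high-ratio set and 0.13 in the low-ratio set. The summed blood signal was 44356 to 62120 in mutant pools and 31573 to 44015 in control pools, so the groups were nearly in contact.

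Of 6 markers of lateral and intermediate mesoderm 4 were negative and limma called 3 lower, Prrx1, Hand2 and Foxf1 (log2 −1.32, −0.95 and −0.87), while Lhx1 had 0.43 with groups that did not overlap. Their median was −0.54, with −0.68 in the high-ratio set and −0.63 in the low-ratio set, and their summed signal was 3488 to 3951 in mutant pools and 5959 to 6356 in control pools. Other probe sets of 2 called genes differed from these values. The 3 of Prrx1 ran from −1.32 to 0.01, and the 2 of Hand2 had −0.95 and 0.18, with 1 called for each gene. Of 6 endothelial markers 5 were negative and limma called 1 lower, Kdr (log2 −0.82), while Emcn had 0.77 with groups that did not overlap. Their median was −0.20, with 0.02 in the high-ratio set and −0.48 in the low-ratio set, and their summed signal was 2350 to 2929 in mutant pools and 3010 to 3567 in control pools.

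The summed signals of the remaining lists overlapped between the genotypes. For 5 neural tube markers they were 7456 to 10322 in mutant pools and 7126 to 9350 in control pools, with a median difference of 0.23. Limma called 0 of these 5, and 1 had an unadjusted p under 0.05, beside 14.6% of all genes. For 8 gut endoderm markers the summed signals were 9877 to 21562 in mutant pools and 6859 to 11612 in control pools, with a median of 0.28. Of these 8 markers 7 were positive. The 1 negative marker, Sox17, was the 1 call (log2 −1.06, and −0.31 by its other probe set, which was not called). The part of all these cells in the members' values was not tested.

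The other genes of the pathway came from lists chosen with earlier results of these data known, each gene read by its brightest probe set and tested by limma over all probe sets. Of 11 measured targets that act in cell cycle arrest and feedback, 4 rose, 0 fell and 7 did not pass, beside 0.34% of all genes called higher and 0.466% lower, with a median difference of 0.74 beside 0.02 over all genes. Cdkn1a, the kinase inhibitor p21, read 2089, 2221 and 1751 in mutant pools and 343, 330 and 380.5 in control pools (log2 2.52, SE 0.14, limma adjusted p = 4.02e-05). Ccng1, cyclin G1, rose by 2.33 (SE 0.10, limma adjusted p = 8.66e-06), with 2.31 to 2.37 over its 3 probe sets, all of them called.

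Zmat3, a zinc finger protein that binds RNA, had 0.96 (SE 0.13, limma adjusted p = 0.0122), and Plk2, a polo-like kinase, 0.80 (SE 0.13, limma adjusted p = 0.0299). Zmat3 lost its call without mutant 1, control 2 or control 3 (limma adjusted p = 0.121, 0.0585 and 0.0823). Plk2 kept its call only without control 1, with a limma adjusted p of 0.0574 to 0.186 without any other 1 array. Gadd45a, a stress sensor, had 0.84 (SE 0.18, limma adjusted p = 0.0798).

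Of 4 other measured targets of cell death, limma called 0, while 3 had an unadjusted p under 0.05, as 14.6% of all genes did. Bid, a BH3-only protein that links death receptors to mitochondria, read 644, 699 and 794 in mutant pools and 403, 431 and 519 in control pools (log2 0.66, SE 0.16, limma adjusted p = 0.101). Bbc3, which encodes Puma, read 231, 215 and 246 in mutant pools and 94.3, 167 and 163 in control pools (log2 0.74, SE 0.24, limma adjusted p = 0.226). Ei24, an endoplasmic reticulum protein, had 0.29 (SE 0.11, limma adjusted p = 0.299) and Siva1, a partner of death receptors, −0.09 (SE 0.13, limma adjusted p = 0.816). In Bid, Bbc3 and Ei24, 3 of the 4, all mutant values lay above all control values, beside 10.9% of all probe sets.

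**Figure D4:**
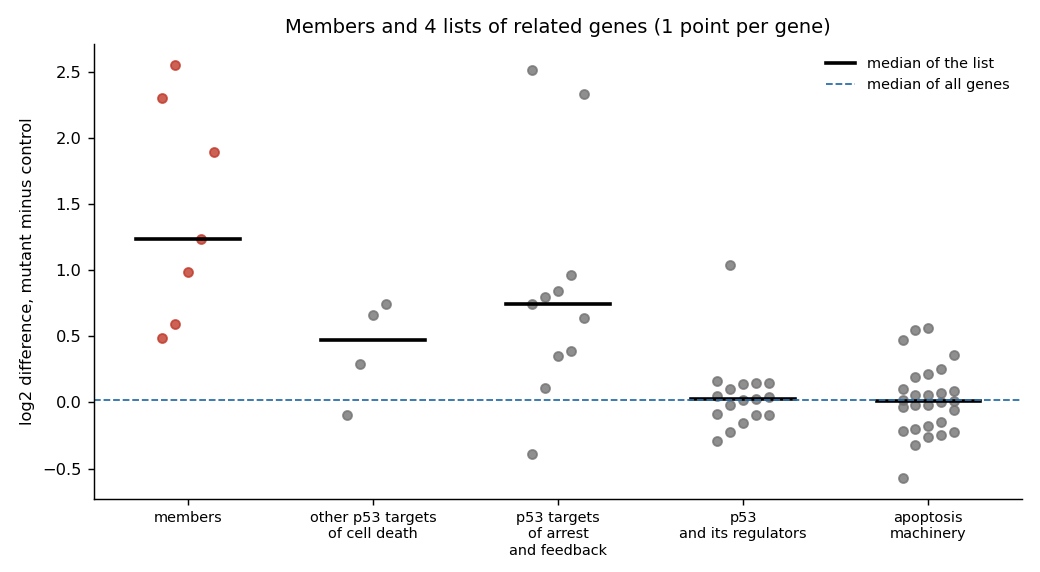
Log2 difference (mutant minus control) of each gene by its brightest probe set, for the 7 members and 4 lists of related genes, with each list's median (black line) and the median of all genes (dashed line, 0.02). The regulators of p53 and the apoptosis machinery have medians of 0.03 and 0.01, against 0.74 for the arrest and feedback targets.

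The differences of the machinery that the members act on centred near those of all genes. Of 28 measured genes of the apoptosis machinery, limma called 0, beside 0.34% of all genes called higher and 0.466% lower. By limma 4 of the 28 had an unadjusted p under 0.05, beside 14.6% of all genes. The median difference of the 28 was 0.01, with 15 positive and 13 negative values from −0.57 to 0.57, where 52.9% of all genes were positive. The partners of the members were named for that role after their values were seen. Mcl1, the survival protein that Noxa binds, read 5890, 7745 and 7518 in mutant pools and 8454, 7866 and 8222 in control pools (log2 −0.22, SE 0.12, limma adjusted p = 0.463). The 6 probe sets of Mcl1 ran from −0.22 to 0.14. Cycs, cytochrome c, had 0.09 (95% interval −0.09 to 0.27), and Casp9, the caspase that the apoptosome activates, −0.04 (95% interval −0.36 to 0.28).

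The smallest p-values in that list belonged to Bcl2l2, Casp8, Dffb, Tradd and Casp2. Bcl2l2, which encodes the survival protein Bcl-w, read 265, 263 and 291 in mutant pools and 391, 456 and 374 in control pools (log2 −0.57, SE 0.16, limma adjusted p = 0.153). Casp8, the caspase of the death receptors, read 473, 429 and 514 in mutant pools and 337, 354 and 327 in control pools (log2 0.47, SE 0.15, limma adjusted p = 0.215). Dffb, the nuclease that cuts DNA between nucleosomes, had 0.55 (SE 0.19, limma adjusted p = 0.249), Tradd, an adaptor of death receptors, 0.57 (SE 0.22, limma adjusted p = 0.314), and Casp2 −0.26 (SE 0.12, limma adjusted p = 0.414). None of these 5 passed the threshold, although their groups did not overlap. They were picked by their p-values, so nothing is read from that. In the whole list of 28, all mutant values lay above all control values for 5 genes and below them for 5. Over all probe sets 10.9% had them above, and the share below is not given here.

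Of 17 measured genes from a list of p53 and its regulators, limma called 0, beside 0.34% of all genes called higher and 0.466% lower. By limma 2 of the 17 had an unadjusted p under 0.05, beside 14.6% of all genes. The median difference of the 17 was 0.03. Trp53, which encodes p53, was listed but had no probe set with 1 symbol, so its RNA was not read here. Besides Trp63, which is also among the ectoderm markers, the smallest p-values were those of Sirt1, a deacetylase that acts on p53 (−0.29, SE 0.12, limma adjusted p = 0.343), and Mdm4, a p53 inhibitor (−0.23, SE 0.13, limma adjusted p = 0.499). Mdm4 had 0.14 by its other probe set. The acetylase gene Ep300 had −0.16 (SE 0.13, limma adjusted p = 0.647), and Atm, the kinase that signals DNA breaks, 0.14 (SE 0.12, limma adjusted p = 0.658).

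The 8 genes whose values over the 6 arrays were most like the mean of the 7 members were found among 7109 genes at or above the 40th percentile of signal, by Pearson's r over log2 values. They were Cdkn1a (r = 0.997), Ccng1 (0.996), Gprc5c (0.994), Slc19a2 (0.994), Ppp1r26 (0.991), Lap3 (0.989), Thyn1 (0.986) and Ifitm3 (0.986). The 6 points share the gap between the genotypes, and r describes the shape of a profile and not its size. Slc19a2, a thiamine transporter, read 1271, 1323 and 1328 in mutant pools and 309.6, 283 and 285 in control pools (log2 2.16, SE 0.13). In contrast, Ppp1r26, a regulatory subunit of protein phosphatase 1, differed by 0.25 (SE 0.14) and Lap3, a leucine aminopeptidase, by 0.23 (SE 0.09). Gprc5c, an orphan receptor, had 0.75 (SE 0.14) by its brightest probe set and −0.22 by its other one. Thyn1 had 0.57 (SE 0.10) and Ifitm3, an interferon-induced membrane protein, 0.73 (SE 0.12).

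**Figure D5:**
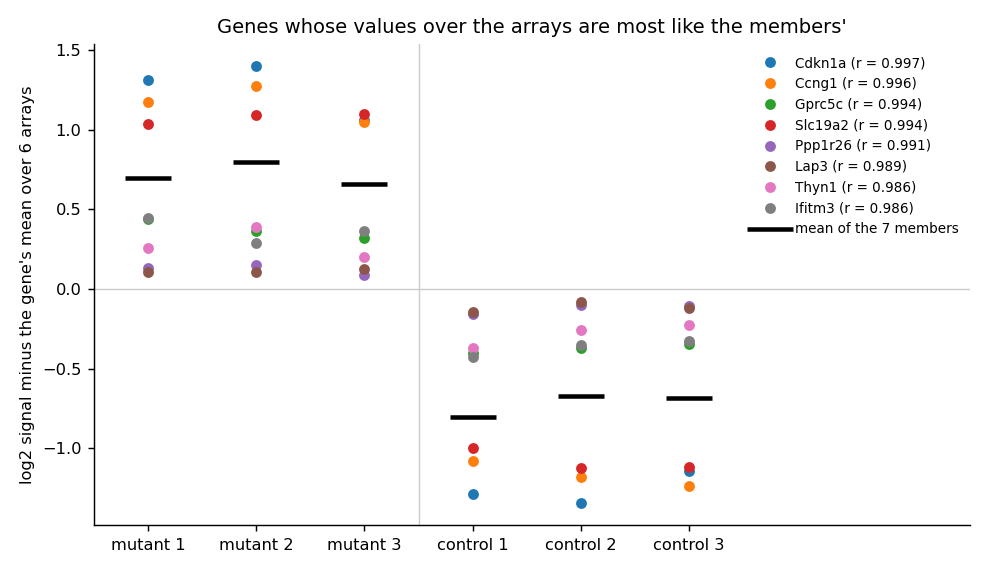
Log2 signal of the 8 most similar genes in each array, minus the gene's mean over the 6 arrays, with the mean of the 7 members as a black bar. Each gene is above 0 in the 3 mutant arrays and below 0 in the 3 control arrays, and Ppp1r26 and Lap3 have the smallest steps.

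Each member was also set against the mean of the other 6 over the arrays. Its r was 0.991 for Eda2r, 0.981 for Aen, 0.981 for Trp53inp1, 0.973 for Phlda3, 0.935 for Apaf1, 0.884 for Pmaip1 and 0.882 for Perp. High values were built in, since the members were chosen by the gap between the genotypes that the 6 arrays share. They do not show that members vary together within a genotype. Pmaip1 and Perp, the members with the widest spread among controls, had the lowest r.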

How the data were processed

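The authors deposited 1 linear signal intensity per probe set and array, already scaled. Affymetrix Expression Console and MAS5 are the tools listed, per the submitters' processing notes. Versions, scaling target and the choice of the 19606 probe sets are not given in the sources used here. After 55 array controls were left out, 17348 of 19551 probe sets had 1 symbol in the platform annotation, 494 had several and 1709 none. No genome build is named for the arrays, so genes have no coordinates.

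Signals were analysed as log2(signal + 1) with no filter on low values. Mutant and control pools were compared by limma 3.58.1 (R 4.3.3) with an intensity trend, two-sided, and p was adjusted by Benjamini-Hochberg over all 19551 probe sets, called under 0.05. The code was tested on simulated data. The labels do not say whether the embryos of a genotype shared litters, so p-values measure the spread between these pools, and the number of arrays limits precision. Members and lists were chosen with earlier results of these data known. Named genes were all members, the called genes or up to 5 with the smallest p in each of the 4 pathway lists, and the 8 most similar genes. Mcl1, Cycs, Casp9 and the single genes of the marker lists were named outside this rule, after their values were seen. Rik, Gm, LOC and clone names were passed over. Alternatives were other scalings, offsets, filters, variance models, a replicate block, a spike-in ratio block that splits arrays at a dap ratio of 15 (seen in earlier results), probe set kinds and leaving out each array.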

Additional observations from a re-analysis of the deposited data

How the results depend on the processing

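The 19551 probe sets gave 109 calls, and this count was 48 with a filter at the 60th percentile, 47 with no intensity trend, 902 with array quality weights, 680 with the spike-in ratio block, and 33 to 206 with 1 array left out. The 3 called member probe sets became 1 with the 60th percentile filter, which left out Eda2r and Phlda3, 5 with median centring, 8 with array quality weights, 8 with the spike-in ratio block, and 3 to 5 with 1 array left out. The median difference of all 9 member probe sets, 0.99, was 1.32 within the high-ratio arrays, 0.83 within the others and 0.82 to 1.23 with 1 array left out. The 4 other p53 targets that rose became 2 with no intensity trend, 8 with the spike-in ratio block, and 2 to 4 with 1 array left out. Array quality weights called 1 gene of the apoptosis machinery, Dffb, and leaving out any 1 array called 0. The cause of these changes was not tested, except where a filter removed probe sets. Of single probe sets, 2 turned sign: Aen 1437373_at to −0.0041 without mutant 3 and Siva1 to 0.046 without control 1 (ranges with 1 array left out −0.0041 to 0.21 and −0.20 to 0.046). Arrays of equal replicate number had a residual r of 0.18, −0.27 and 0.27, and 2 of 6 arrays correlated best with their own number. With 3 such pairs, these values cannot decide whether arrays of equal number were handled together. With the replicate block 218 probe sets and 5 member probe sets were called.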
